A study of Mus musculus with 6 samples.

Results

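The nuclear factor I (NFI) family consists of 4 genes in the mouse, Nfia, Nfib, Nfic and Nfix. The members were chosen by symbol, as the complete family, and mapped to the Ensembl gene identifiers of the deposited count table with GENCODE M21. All 4 were found among 49315 genes, and all 4 were among the 18079 genes that passed the filter on low counts. NFI proteins bind DNA as dimers, through a conserved N-terminal domain, to a palindrome whose arms read TTGGC and GCCAA. In the developing nervous system they appear in progenitors as neurogenesis proceeds, are needed for the timely switch of radial glia to making astrocytes, and are also present in subsets of neurons. Nfia and Nfib are best known for starting gliogenesis, Nfix for progenitor timing and later maturation, and Nfic for tooth root formation outside the brain.

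The libraries were made from total RNA of the medial ganglionic eminence (MGE), the ventral forebrain zone where many cortical interneurons are born, of mouse embryos at embryonic day 14. Every pool carried Nkx2.1-Cre, a recombinase driven from a gene of MGE progenitors, and Ai14, a Cre-dependent red fluorescent reporter. The control pools, named WT, were Prdm16+/+, and the pools labelled KO were Prdm16fl/fl, homozygous for an allele that Cre can recombine. Each group had 3 libraries, each from 1 pool of 3 embryos, and total counts per library ran from 33188277 to 55552298. Whole dissected tissue was used, so cells outside the Cre lineage are included, and fewer cells of a type cannot be told apart from less RNA per cell. The comparison asks how transcripts of the MGE differ when Prdm16, a zinc finger regulator of neural progenitors, is conditionally deleted.

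Prdm16 was at 55.8, 47.0 and 45.5 CPM in WT 1 to 3 (CPM, the reads of a gene after every library is scaled to the same total). It had 53.6, 51.3 and 45.8 CPM in KO 1 to 3, so the groups overlapped (log2 fold change 0.02, SE 0.09, edgeR adjusted p = 0.884). Counts were made per gene and cannot show whether single exons were lost, so the KO label rests on the submitters' description alone. The libraries did not deviate from their groups evenly. The first principal component (55.9% of variance) separated the groups, with WT from -31.0 to -28.3 and KO 1 to 3 at 15.9, 35.4 and 37.2. KO 1 was thus the KO library nearest to WT on it. On the second (16.1%) KO 1 lay at -35.0 while the other 5 libraries lay between 0.5 and 12.4. Defining transcription factor genes of the MGE were well counted, with Nkx2-1 at 647 ± 29.4 CPM in WT and 770 ± 118 in KO (SD, n = 3), and Lhx6 at 652 ± 31.2 and 503 ± 26.6.

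Nfib, Nfic and Nfix were lower in the pools labelled KO, and Nfia did not pass the test. The largest difference was in Nfix, which was 2.17-fold lower, followed by Nfic (1.5-fold lower) and Nfib (1.32-fold lower). The family was singled out with the results of this contrast in view, so these values and their adjusted p-values over all genes describe where the members stood and lend support to nothing else. Of all tested genes 20.2% were called in either direction at an edgeR adjusted p under 0.05, 10.5% as lower and 9.72% as higher. Leaving out any 1 of the 6 libraries moved these all-gene counts by more than 1.5 times, to between 464 (without WT 3) and 3752 (without KO 1) higher genes, against 1758 with all libraries, and between 727 (without WT 3) and 3804 (without KO 1) lower genes, against 1897.

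Nfix, on chromosome 8 (GRCm38, 84699876 to 84800344, minus strand, ENSMUSG00000001911), had 99.2, 113 and 108 CPM in WT 1 to 3. Across KO 1 to 3 it had 56.4, 40.3 and 50.6 CPM. Every KO library was below every WT library, with KO 2 the lowest, and the same separation held for Nfib and Nfic, against 19.6% of all tested genes with all KO libraries below all WT libraries. The group means were 107 ± 7.16 and 49.1 ± 8.16 CPM (SD, n = 3), and Nfix fell by 1.12 on the log2 scale (SE 0.11, edgeR adjusted p = 0.000374). The 95% interval of the KO to WT ratio ran from 0.387 to 0.546. Among all tested genes 1.79% had a lower log2 fold change.

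Nfic, on chromosome 10 (81396186 to 81455635, minus strand, ENSMUSG00000055053), was the member with the fewest reads. It had 32.7, 34.3 and 32.8 CPM across WT 1 to 3, against 23.9, 20.8 and 21.6 CPM across KO 1 to 3. The WT libraries lay close together and the KO libraries lay wholly below them. The means were 33.3 ± 0.926 and 22.1 ± 1.60 CPM, a fall by 0.59 on the log2 scale (SE 0.07, edgeR adjusted p = 0.001), with an interval of the ratio from 0.594 to 0.743. A lower log2 fold change was found in 7.25% of tested genes.

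Nfib, on chromosome 4 (82290173 to 82705750, minus strand, ENSMUSG00000008575), had the most reads of the 4. It had 179, 195 and 180 CPM across WT 1 to 3, against 146, 141 and 134 CPM across KO 1 to 3. The groups did not overlap, although the gap between the lowest WT and the highest KO library was smaller than for Nfix in relative terms. Nfib fell by 0.40 on the log2 scale (SE 0.06, edgeR adjusted p = 0.00283), from 185 ± 9.16 to 140 ± 5.89 CPM, with an interval of the ratio from 0.693 to 0.833. Among all tested genes 12.8% had a lower log2 fold change.

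Nfia, also on chromosome 4 (97772734 to 98118874, plus strand, ENSMUSG00000028565), had 65.5, 67.8 and 62.8 CPM across WT 1 to 3, against 63.0, 67.5 and 70.1 CPM across KO 1 to 3. The groups overlapped, with the highest value in KO 3 and the lowest in WT 3. The means were 65.3 ± 2.5 and 66.9 ± 3.59 CPM, with a log2 fold change of 0.03 (SE 0.06, edgeR adjusted p = 0.72). The interval of the ratio ran from 0.932 to 1.12, so a fall of the size seen in Nfib, Nfic or Nfix lay outside it.

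**Figure D1:**
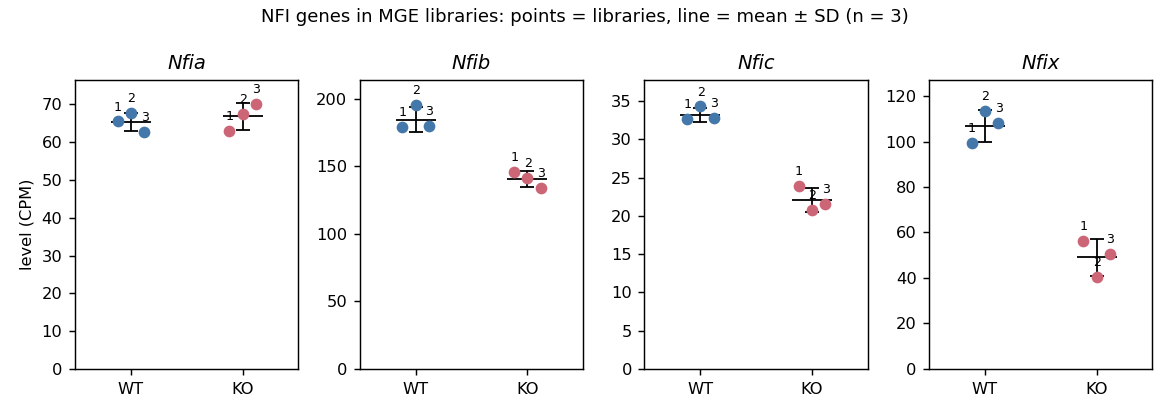
CPM of each NFI gene in the 3 WT and 3 KO libraries (points numbered by library; lines with bars are means ± SD, n = 3; each axis starts at 0). The KO points of Nfib, Nfic and Nfix all lie below the WT points, while those of Nfia overlap them.

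**Figure D2:**
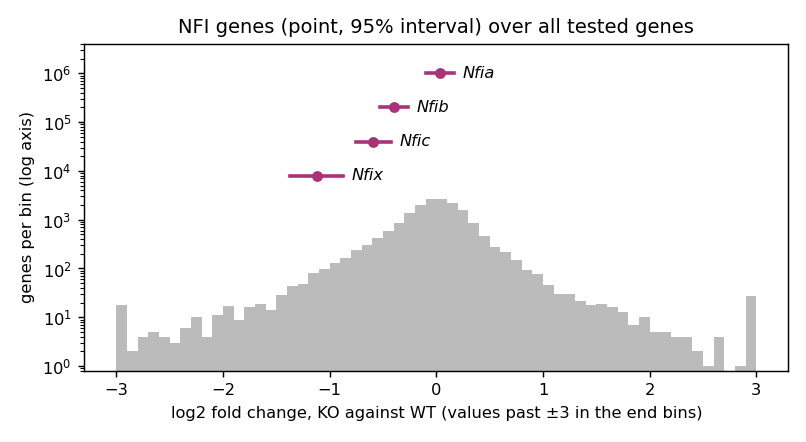
Histogram of the log2 fold change, KO against WT, over all 18079 tested genes (log count axis), with the fitted value and 95% interval of each NFI gene above it; the height of a marker has no meaning. Nfix lies at -1.12, in the lower tail, and Nfia at 0.03, near the centre.

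KO 1 was the library set apart on the second component and the KO library nearest to WT on the first. In KO 1, Nfib, Nfic and Nfix were each higher than in KO 2 and KO 3, and Nfia was lower. Leaving KO 1 out was therefore bound to widen the 3 falls and to raise the value of Nfia, and it does not test them. That fit also called more genes, 3752 higher and 3804 lower, against 1758 and 1897 with all libraries. With KO 1 left out, the log2 fold changes were -1.22 for Nfix, -0.64 for Nfic, -0.42 for Nfib and 0.08 for Nfia, with edgeR adjusted p-values of 0.000158, 7.83e-06, 3.98e-05 and 0.215.

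The members moved by different amounts, so their proportions changed. The log2 ratio of Nfia to Nfix, from CPM, was -0.599, -0.742 and -0.787 across WT 1 to 3, against 0.16, 0.744 and 0.473 across KO 1 to 3. Nfix transcripts had more reads than those of Nfia in every WT library and fewer in every KO library. Reads depend on gene length. Per kilobase of annotated exons Nfix stayed above Nfia in KO 1 (7.68 against 5.79 CPM) and KO 3 (6.88 against 6.44 CPM). For Nfib to Nfix the mean log2 ratio went from 0.788 to 1.53, and for Nfic to Nfix from -1.68 to -1.14. The ratio of Nfib to Nfic changed least among the 6 pairs, from 2.47 to 2.67. These ratios come from the same contrast and are given without a test. In none of the 6 pairs did the KO and WT libraries overlap. The pairs share members, and Nfib, Nfic and Nfix each separated the groups by CPM, so the pairs are not independent. By CPM of single genes, 39.9% of all tested genes had groups that did not overlap. No such share was computed for ratios of other gene pairs.

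Levels of different genes can be compared only per length, here as CPM per kilobase of annotated exons. In WT the order was Nfix (14.6 ± 0.974 CPM per kb), Nfib (12.3 ± 0.612), Nfia (6.00 ± 0.229) and Nfic (5.02 ± 0.140). The order of Nfix and Nfib is not settled, because with the longest annotated transcript as the length Nfib was at 20.2 ± 1.00 and Nfix at 19.5 ± 1.31 CPM per kb and their libraries overlapped. In KO the order was Nfib (9.38 ± 0.394), Nfix (6.68 ± 1.11), Nfia (6.14 ± 0.330) and Nfic (3.33 ± 0.241). Nfix and Nfia did not differ beyond their spread there, since Nfix ran from 5.48 to 7.68 and Nfia from 5.79 to 6.44 CPM per kb. With the longest annotated transcript as the length, Nfix was at 8.96 ± 1.49 and Nfia at 7.02 ± 0.377 CPM per kb. Nfix was then above Nfia in each KO library, so their order in KO depends on the length used.

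Summed over the 4 genes, the level was 36.4, 39.9 and 37.5 CPM per kb across WT 1 to 3, against 26.8, 24.3 and 25.5 across KO 1 to 3. The KO mean was 67.4% of the WT mean, and the groups did not overlap. Nfix made up 38.4% ± 1.16 of the family sum in WT and 26.1% ± 3.12 in KO (SD, n = 3). The share of Nfia went from 15.8% ± 0.604 to 24.1% ± 2.19 and that of Nfib from 32.5% ± 0.423 to 36.8% ± 1.96, while Nfic stayed near 13%, at 13.2% ± 0.277 and 13.0% ± 0.354. With the longest transcript as length the shares of Nfia, Nfib and Nfic differed (Nfib 39.0% in WT and 44.1% in KO, Nfic 10.3% and 10.1%), so they depend on the length used. The share of Nfix changed little with it (37.6% in WT and 25.6% in KO). Nfib was the member with the highest level per length in every KO library, and the KO libraries differed among themselves most in Nfix, whose share ran from 22.6% in KO 2 to 28.6% in KO 1.

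**Figure D3:**
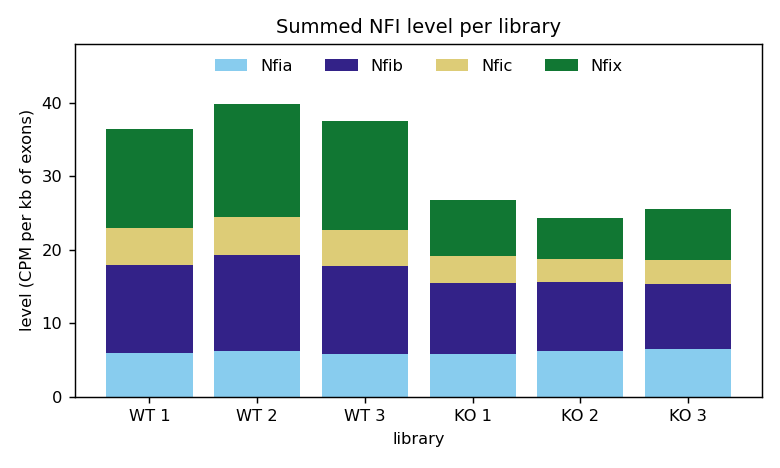
Level of each NFI gene in CPM per kb of exons, stacked for each of the 6 libraries. The whole bar is 36.4 to 39.9 in WT and 24.3 to 26.8 in KO, and the segment of Nfix shrinks most.

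The 4 genes are large transcription units, from 59.5 kb (Nfic) to 415.6 kb (Nfib), with 7 to 12 annotated transcripts each, which gene counts cannot separate. Of 22 other genes annotated on either strand within 20 kb of a member, 19 were in the count table. Of these 13 passed the filter and 1 was called, where 20.2% of all tested genes were called. That gene, E130114P18Rik, lies on the strand opposite to Nfia and shares 5345 bases with the 5' end of Nfia as annotated in GENCODE M21. A RefSeq start of Nfia lies further upstream, inside E130114P18Rik, so the length of the shared stretch depends on the annotation. E130114P18Rik rose from 2.71, 3.52 and 3.18 CPM in WT 1 to 3 to 4.88, 5.24 and 6.92 CPM in KO 1 to 3 (log2 fold change 0.87, SE 0.17, edgeR adjusted p = 0.00887). No source used here gives the strand setting of the counting, so reads in the shared stretch cannot be told apart, and the level of this gene is small beside that of Nfia. The other 12 tested neighbours did not pass, with log2 fold changes from -0.29 to 1.07. The highest was Gm16104, antisense within Nfic, at 1.07 (edgeR adjusted p = 0.0766) and a level of 0.149 CPM in WT and 0.306 CPM in KO. Lyl1, within Nfix, and Dand5, beside it, were at 0.41 and 0.35 (edgeR adjusted p = 0.107 and 0.0729). Nacc1 and Trmt1, beside Nfix, had log2 fold changes of 0.02 and 0.14 (edgeR adjusted p = 0.824 and 0.0978), and Fzr1 and Celf5, beside Nfic, had 0.05 and -0.01 (edgeR adjusted p = 0.589 and 0.908). Gm11266, antisense within Nfib, had 2.66 CPM in WT and 2.71 CPM in KO.

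Nfix and Nfic had the largest falls of the 4 genes, by different amounts, and a stretch before a RefSeq start of each is shown for that reason (build GRCm38.p6, 5′ to 3′ on the gene's strand, without bases that GENCODE M21 annotates as untranslated). Both starts lie inside the spans of the GENCODE genes, and other starts exist. The stretches are chr8:84780083-84780332 (minus strand) and chr10:81427188-81427423 (minus strand).
Nfix: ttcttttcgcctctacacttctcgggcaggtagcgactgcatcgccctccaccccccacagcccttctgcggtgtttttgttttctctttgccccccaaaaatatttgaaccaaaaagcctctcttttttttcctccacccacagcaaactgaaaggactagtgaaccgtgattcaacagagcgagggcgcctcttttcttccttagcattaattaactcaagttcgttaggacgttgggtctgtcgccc
Nfic: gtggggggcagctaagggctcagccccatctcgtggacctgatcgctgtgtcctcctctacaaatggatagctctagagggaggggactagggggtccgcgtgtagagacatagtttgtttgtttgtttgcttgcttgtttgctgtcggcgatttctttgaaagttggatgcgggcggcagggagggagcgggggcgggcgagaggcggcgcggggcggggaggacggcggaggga

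The windows of 300 bases (250 before and 50 after a start) differ in base composition, with 63% G and C and 24 CG dinucleotides for Nfic and 49.3% and 13 for this Nfix start. The 6 RefSeq windows matched to Nfia, Nfic and Nfix were searched on both strands for the full NFI palindrome, read as TTGGC and GCCAA with any 5 bases between, and for TTGGCA, 1 arm of it with an added A. Neither was in any of the 6 windows, while TTGGCA was in 14.1% and the palindrome in 0.0365% of the 32851 promoter windows searched. The search says only that these letters are not in these windows. The Nfia window (chromosome 4, 97581693 to 97581992) lies upstream of the GENCODE span of Nfia, which starts at 97772734. The bases around the start of that span were therefore not searched.

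Genes known to act upstream of NFI genes or beside NFI proteins moved in both directions. Of 9 such genes 4 rose, 3 fell and 2 did not pass, a called share of 77.8% against 20.2% over all tested genes, with a median log2 fold change of 0.23 against -0.002 over all genes. This list and the next ones were written with earlier results of these data known. Sox9, the HMG box factor that induces Nfia and then works with it in glial progenitors, rose from 80.3 ± 1.68 to 124 ± 6.14 CPM (SD, n = 3; log2 fold change 0.63, edgeR adjusted p = 0.00021). The progenitor factor genes Pax6 (log2 fold change 0.65), Lhx2 (0.53) and Olig2 (0.47) rose as well, at edgeR adjusted p-values of 0.0203, 0.00544 and 0.0081. Pou3f2, a POU domain factor of late progenitors and upper layer neurons, fell from 196 ± 18.3 to 114 ± 10.5 CPM (log2 fold change -0.78, edgeR adjusted p = 0.000593). Zbtb20, a zinc finger factor that takes part with NFI in astrocyte formation, fell from 322 ± 32.8 to 196 ± 6.49 CPM (log2 fold change -0.72, edgeR adjusted p = 0.000459). Ski, a corepressor that binds NFI proteins, fell by 0.22 on the log2 scale (edgeR adjusted p = 0.0323). Notch1 and Rbpj, of the Notch pathway that can induce Nfia, were at log2 fold changes of -0.14 and 0.23 (edgeR adjusted p = 0.45 and 0.23).

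Among 18 genes reported as NFI targets or as glial genes that depend on NFI, 16 were tested, of which 7 fell, 3 rose and 6 did not pass. The called share was 62.5%, against 20.2% over all tested genes, and the median log2 fold change -0.48. The members that fell were mostly genes of astrocytes and their progenitors. Aldh1l1, a folate enzyme gene used as an astrocyte marker, had 21.8, 24.5 and 23.9 CPM across WT 1 to 3, against 6.72, 3.49 and 4.26 CPM across KO 1 to 3 (log2 fold change -2.27, SE 0.20, edgeR adjusted p = 0.000326). Aldoc, the brain aldolase gene, fell from 11.8 ± 0.943 to 3.57 ± 0.711 CPM (log2 fold change -1.70, SE 0.15, edgeR adjusted p = 0.000167). The water channel gene Aqp4 fell from 1.13 ± 0.188 to 0.231 ± 0.178 CPM (edgeR adjusted p = 0.00621), a low level in both groups. The glutamate transporter gene Slc1a3 (log2 fold change -0.65) and the NFIA and SOX9 target genes Mmd2 (-0.64) and Zcchc24 (-0.57) fell too, at edgeR adjusted p-values of 0.00202, 0.0162 and 0.00424. Cntn2, an axonal adhesion gene, fell by 0.62 on the log2 scale (edgeR adjusted p = 0.0439).

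The 3 targets that rose are progenitor genes. Hes1, a Notch effector gene that NFIA represses, rose from 13.2 ± 0.606 to 24.7 ± 3.06 CPM (log2 fold change 0.90, edgeR adjusted p = 0.000563). Fabp7, a fatty acid binding protein gene of radial glia, rose from 214 ± 27.7 to 410 ± 56.2 CPM (log2 fold change 0.94, edgeR adjusted p = 0.00122), and Sox9 belongs to this list as well. Ezh2, the Polycomb methyltransferase gene that NFIB represses, was at 291 ± 10.9 and 314 ± 17.9 CPM (log2 fold change 0.11, edgeR adjusted p = 0.228). Apcdd1, another NFIA and SOX9 target, had a log2 fold change of -0.38 with edgeR adjusted p = 0.0529. Cdh2, Ephb1, Bbx and S100b were the others that did not pass, with log2 fold changes of -0.02, -0.07, -0.24 and -0.66. Gfap and Insc were too low to be tested, with 15 and 22 reads over the 6 libraries.

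For 12 of the listed targets 13 RefSeq promoter windows were searched, and 5 of these held TTGGCA (38.5%, against 14.1% of all windows searched). The genes were Aldoc, Ezh2, Insc, Mmd2 and S100b, and none of the 13 windows held the full palindrome. Aldoc and Mmd2 are those of the 5 that fell, while Ezh2 and S100b did not pass and Insc was not tested. The letters were absent from the other Aldoc window and from those of Aldh1l1, Cntn2, Slc1a3 and Zcchc24, which also fell. The stretches of Aldoc and Mmd2 that hold TTGGCA are shown with it in capitals, 146 and 105 bases before the start. They lie at chr11:78322823-78322967 (plus strand) and chr5:142608801-142609002 (minus strand), and annotated untranslated bases are left out.
Aldoc: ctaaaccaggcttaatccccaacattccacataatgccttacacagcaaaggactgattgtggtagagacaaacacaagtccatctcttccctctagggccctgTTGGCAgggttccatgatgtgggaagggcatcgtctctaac
Mmd2: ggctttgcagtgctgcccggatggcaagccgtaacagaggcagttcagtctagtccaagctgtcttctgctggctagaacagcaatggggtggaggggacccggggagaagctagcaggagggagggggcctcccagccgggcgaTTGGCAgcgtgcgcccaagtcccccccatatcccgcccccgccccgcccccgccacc
The match describes letters in a short window. No binding was measured.

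NFI levels climb as progenitors age, while a group of RNA-binding and chromatin genes is high early and then declines. Of 7 such early genes 5 rose, none fell and 2 did not pass, a called share of 71.4% against 20.2% over all tested genes (9.72% as higher), with a median log2 fold change of 0.63. Hmga2, which encodes a chromatin protein of young stem cells, had 11.1, 9.17 and 8.03 CPM across WT 1 to 3, against 24.1, 29.1 and 27.0 CPM across KO 1 to 3 (log2 fold change 1.5, edgeR adjusted p = 0.000118). The RNA-binding protein genes Igf2bp2 (log2 fold change 0.74), Lin28b (0.63), Igf2bp1 (0.57) and Igf2bp3 (0.28) rose, at edgeR adjusted p-values of 0.000349, 0.00239, 0.00114 and 0.0217. Lin28a, at 0.435 ± 0.114 and 0.712 ± 0.183 CPM, and Hmga1, at 136 ± 1.20 and 157 ± 35.4 CPM, did not pass (edgeR adjusted p = 0.117 and 0.342).

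**Figure D4:**
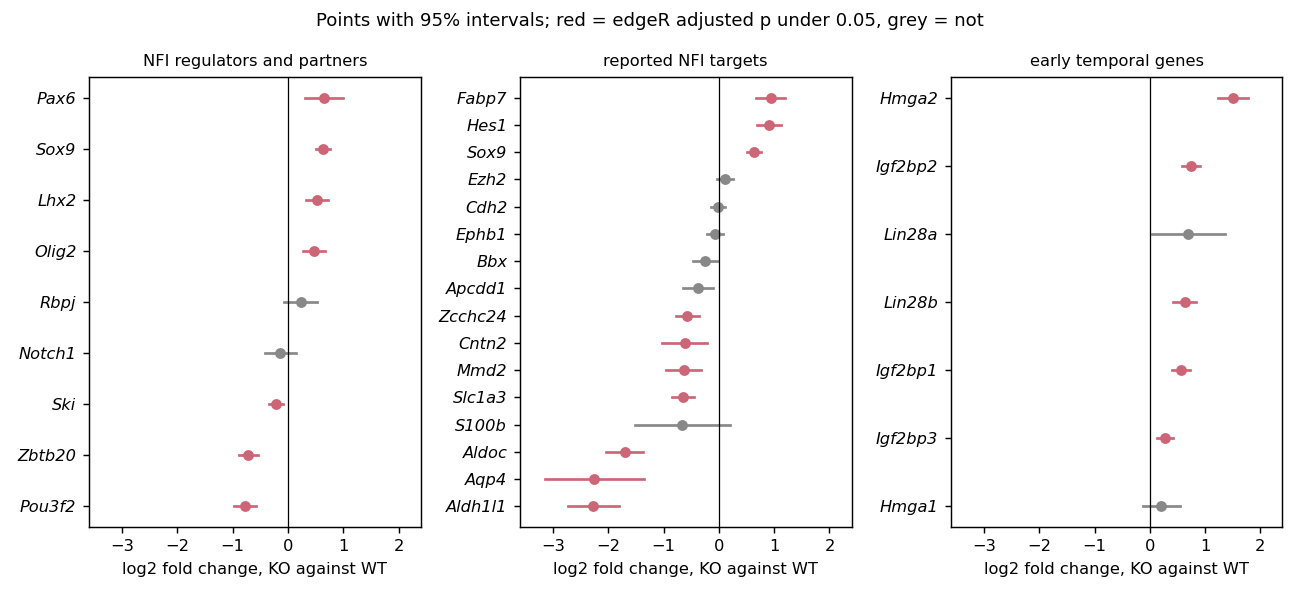
Log2 fold change, KO against WT, with 95% interval for the tested genes of 3 lists (red: edgeR adjusted p under 0.05; grey: not). Genes of the regulator and target lists lie on both sides of 0, and all 7 early genes have values above 0, of which 5 passed.

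Some marker lists of cell types held more called genes than the 20.2% over all tested genes, and their part in the NFI values was not tested. All 8 radial glia markers changed, 7 upward and Slc1a3 downward, and their summed level was 1801 to 1908 CPM in WT and 2614 to 3108 CPM in KO. Of 8 tested astrocyte markers 5 fell and 3 did not pass (171 to 195 against 130 to 155 CPM summed). Gfap, with a count of 0 in at least 1 library, was not tested. Of the 5 that fell, 4 (Aldh1l1, Aldoc, Aqp4 and Slc1a3) are also in the target list, as are the radial glia markers Fabp7, Sox9 and Slc1a3, so these counts are not independent. Of 17 markers of the lateral and caudal eminences, which border the MGE, 11 fell, 1 rose and 5 did not pass (1009 to 1166 against 912 to 1035 CPM). Ebf1, Foxp1, Foxp2, Meis2, Ikzf1, Rarb, Penk, Zfp503, Drd1, Drd2 and Adora2a fell. Nr2f2 rose (log2 fold change 0.97, edgeR adjusted p = 0.0154), and Isl1, Prox1, Six3, Sp8 and Tac1 did not pass. The list mixes markers of both eminences, so its counts describe neither alone. All 5 mural cell markers fell (124 to 127 against 74.2 to 107 CPM). Of 10 markers of the cortical excitatory lineage 5 rose and 5 did not pass (42.3 to 72.0 against 78.7 to 127 CPM). Among those that rose, Neurog1 (mean 0.0259 CPM in WT and 1.71 in KO) and Emx1 (0.504 and 1.49) were at low levels. The neuron and endothelial lists had called shares near that of all genes. Of 9 neuron markers 2 fell and 7 did not pass (22.2%, with sums of 5787 to 6057 against 5250 to 5572 CPM), and of 6 endothelial markers 1 fell and 5 did not pass (16.7%, with sums of 173 to 174 against 131 to 159 CPM). Among 6 microglial markers 2 fell and 4 did not pass (30.5 to 32.6 against 22.8 to 29.2 CPM). Among 5 markers of the oligodendrocyte lineage Olig2 rose, Olig1 fell and 3 did not pass (170 to 179 against 189 to 230 CPM). Of the 8 MGE identity genes Lhx8 rose, Dlx1, Dlx6 and Lhx6 fell and 4 did not pass (3951 to 4227 against 3475 to 4041 CPM). Apart from Gfap, no gene of these lists had a count of 0 in any library.

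The genes whose profile over the 6 libraries was most like that of a member were taken from 9773 protein-coding genes with a mean of at least 10 CPM, by Pearson's r of log2 CPM. They describe these 6 libraries, which share the difference between the groups, and no p is given. For Nfix they were Kcnk2 (r = 0.9997), a potassium channel gene with a log2 fold change of -0.62, Psd2 (r = 0.9988) and Frmd5 (r = 0.9971). For Nfic they were Aldh1l1 (r = 0.9978), which is also in the target list, Mib2 (r = 0.9973), a ubiquitin ligase gene, and Sez6 (r = 0.9966), a neuronal membrane protein gene. For Nfib they were Fnbp1 (r = 0.9971), Rin2 (r = 0.9966) and Atxn1 (r = 0.9964), with log2 fold changes of -0.25, -0.50 and -0.38. For Nfia, which did not separate the groups, they were Vegfb (r = 0.9903), a growth factor gene, Pdss1 (r = 0.9715) and Fam161b (r = 0.9706).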

How the data were processed

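RNA-seq was made from 6 MGE pools. The build was GRCm38 and the tools were STAR 2.5.2b, Trimmomatic 0.36, Subread 1.5.2 with featureCounts, and DESeq2, per the submitters' processing notes. No source used here gives the strand setting or annotation release. The authors deposited raw read counts per gene, used here; 6 columns of a normalized table were not used. Of 49315 gene IDs 48970 matched GENCODE M21. After filterByExpr (at least 10 counts, total at least 15) and TMM scaling, the groups were compared in edgeR 4.0.16 (R 4.3.3) by its quasi-likelihood test with robust spread, which was tested on simulated data, with Benjamini-Hochberg adjustment over all 18079 genes at 0.05. The SE is the log2 fold change over the square root of F. The labels gave groups and replicate numbers; each library is a separate pool. Members and lists were chosen with earlier results of these data known. Named genes were the members, their listed regulators, targets and early genes, neighbours within 20 kb, the 3 most similar genes per member (log2 CPM, prior count 2) and Prdm16; Nkx2-1 and the marker genes named singly were added after their values were seen. Alternatives were other scalings and filters, DESeq2 1.42.0, limma voom (limma 3.58.1), the replicate number as a block and each library left out. Libraries sharing a number had correlated deviations of -0.076, -0.123 and 0.026, so the numbers were not taken to pair samples. Per-length levels used the union of annotated exons. Promoter windows were from RefSeq (GRCm38.p6), without chromosome 18, and 3 of 4 members matched (not Nfib).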

Additional observations from a re-analysis of the deposited data

How the results depend on the processing

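Nfib, Nfic and Nfix kept their direction and stayed under the threshold in all 13 alternatives, with log2 fold changes from -0.418 to -0.354, -0.643 to -0.548 and -1.222 to -0.999, and Nfia did not pass in any of them (0.006 to 0.081, adjusted p from 0.215 to 0.969). With the replicate number as a block, Nfix, Nfic and Nfib were at -1.132, -0.591 and -0.395 (edgeR adjusted p = 0.0048, 0.0105 and 0.0139), Nfia was at 0.033, and 862 genes were higher and 1219 lower over all genes; no call of a member changed. Without 1 library at a time, 464 to 3752 genes were higher and 727 to 3804 lower over all genes, with fewer samples in each fit, and the cause of the spread was not tested. Called members of the regulator list ranged from 3 to 4 higher and 2 to 4 lower, of the target list from 3 to 4 and 5 to 8, and of the early list from 4 to 7 and 0. The difference in each member's share of the family sum, KO minus WT, moved by less than the spread between libraries with the longest transcript as length or without any 1 library (Nfix from -13.601 to -10.58 percentage points). The shares of Nfia, Nfib and Nfic themselves moved with the length by more than that spread (Nfib in WT from 32.5% to 39.0%). The share of Nfix moved by less (in WT from 38.4% to 37.6%). Other scalings, filters and tools left each of these counts within 1.5 times. With 3 libraries a group, spread is estimated from few samples, and p-values cover the variation between these pools only.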
